A study of Mus musculus with 15 samples.

Results

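Transcript levels of 10 regulators of the BCL2 family were described in cultured lines from a mouse study of small cell lung cancer. The genes were the antiapoptotic Mcl1, Bcl2l1 and Bcl2, the pore-forming effectors Bax and Bak1, and the BH3-only genes Bcl2l11, Bbc3, Pmaip1, Bid and Bad. They were taken by gene name from a list set with earlier results of these data known. All 10 were found among the 53689 named gene records of the first count table and the 53618 of the second. The lines carry the genotype Rb1-/-:Trp53-/-:MYC (RPM) or the same with STAT3-/- added (RPMS), so that loss of Rb1 and Trp53 and the MYC allele are common to all groups. In the first table, 4 RPM lines (CMV_426 to CMV_429) and 3 RPMS lines (CMV_228, CMV_231, CMV_252) come from the lung. In the second, all 8 lines are RPMS, with CMV_228, CMV_231, CMV_232 and CMV_252 from the lung and CMV_273, CMV_341, CMV_343 and CMV_344 from the liver, which the study describes as metastases. Lines were grown in culture after isolation from tissue, 1 library per line and table. No age, treatment, promoter or Cre driver is given, and the labels do not say which lines came from the same animal, so p-values measure the spread between these libraries.

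The BCL2 family controls the permeability of the outer mitochondrial membrane, the committing step of intrinsic apoptosis. Antiapoptotic members hold BAX, BAK and the BH3-only proteins in check, BH3-only proteins are induced or modified by stress and neutralise the antiapoptotic members, and released BAX and BAK form the pores through which cytochrome c leaves. Small cell lung cancer is known for high BCL2 and BIM (the product of Bcl2l11), and the antiapoptotic proteins are the targets of BH3-mimetic drugs.

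Total counts ran from 25344949 to 31345631 per library in the first table and from 9453715 (line CMV_344) to 18451248 in the second. Levels are given as CPM, read counts relative to the TMM-scaled library size, set within each table. Stat3, the deleted gene, ranged over 160 to 209 CPM among RPM lines, over 7.83 to 19.0 CPM among the first table's RPMS lines (edgeR quasi-likelihood test, log2 fold change -3.69, adjusted p = 0.00176), and over 11.2 to 28.5 CPM in the second table. Gene counts do not separate deleted from retained exons, and Rb1 counts remained, with 38.7 to 59.0 CPM (RPM) and 22.0 to 130 CPM (RPMS, first table). The labels call every line lung epithelium. In RPM libraries 16 leukocyte markers summed to 3404 to 16161 CPM, with 2 of the 16 at 0, whereas 12 neuroendocrine markers summed to 24.9 to 76.6 CPM. In the RPMS libraries of the first table the leukocyte sum was 6.39 to 125 CPM, with 10 to 12 of the 16 markers at 0 (Ptprc, Adgre1, Itgam, Cd14 and the C1q genes among them), and the neuroendocrine sum was 1148 to 4734 CPM. The sum of the lung epithelium markers was 56.8 to 697 CPM (RPM) and 149 to 332 CPM (RPMS). In the second table line CMV_252 stood apart, with a neuroendocrine sum of 165 CPM against 3787 to 4865 CPM in the other lung lines and 1148 CPM for the same line in the first table. Its leukocyte sum there was 8.30 CPM, within the 5.80 to 16.9 CPM of all libraries of the second table. The liver lines held 3131 to 7022 CPM of neuroendocrine and at most 0.778 CPM of hepatocyte markers. Among them CMV_341 had a lung epithelium sum of 13.8 CPM, against 320 to 837 CPM in the other libraries of the second table. Its fibroblast sum was 124 CPM, against 1.49 to 27.8 CPM in the others.

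The bases just before the annotated start are shown for Mcl1 and Bcl2l11, which were both lower in RPMS than RPM lines, and for Bax, whose RPMS and RPM levels overlapped. Bcl2l11 has 2 such windows, and only the first is shown. The sequences are from RefSeq (GRCm38.p6), 250 bases upstream of the start, and capitals mark the E-box CACGTG.
Mcl1, chr3:95658471-95658720, plus strand: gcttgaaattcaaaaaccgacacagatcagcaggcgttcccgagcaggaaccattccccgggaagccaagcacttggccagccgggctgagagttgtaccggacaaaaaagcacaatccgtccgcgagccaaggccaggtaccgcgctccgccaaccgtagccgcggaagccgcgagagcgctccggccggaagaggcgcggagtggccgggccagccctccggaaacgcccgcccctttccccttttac
Bcl2l11, chr2:128125788-128126037, plus strand: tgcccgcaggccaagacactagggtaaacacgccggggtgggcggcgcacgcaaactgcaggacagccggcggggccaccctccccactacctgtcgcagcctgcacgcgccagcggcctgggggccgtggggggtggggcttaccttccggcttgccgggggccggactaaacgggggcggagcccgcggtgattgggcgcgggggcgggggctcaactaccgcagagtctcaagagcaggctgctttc
Bax, chr7:45466899-45467148, minus strand: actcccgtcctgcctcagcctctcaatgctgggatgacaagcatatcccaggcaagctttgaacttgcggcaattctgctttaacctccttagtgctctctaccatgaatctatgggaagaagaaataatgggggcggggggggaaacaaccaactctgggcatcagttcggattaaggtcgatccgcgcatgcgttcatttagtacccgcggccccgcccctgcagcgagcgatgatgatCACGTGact

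Windows of 250 bases before and 50 after the start were searched on both strands for the STAT palindrome TTCNNNGAA, the E-box CACGTG and the E2F motif TTTGGCGC in 15 windows of 9 members. The palindrome and the E2F motif had no match in any of them, against 8.3% and 0.514% of all 32851 windows with a match. The E-box, which is bound by MYC among other factors, is present in 7.15% of all windows. It was found in Bax, at -9 and +35 from the start, and in 1 of the 3 windows of Bbc3, at -64. A match is a description of letters and not of a bound site.

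The first comparison asked how RPMS lung lines differ from RPM lung lines. In RPMS lines, Mcl1, the effector Bak1 and the BH3-only gene Bcl2l11 were lower, by 2.96-fold, 4.63-fold and 3.71-fold, and none of the 10 genes was called higher. Of 17654 genes tested, 30.6% were called at an adjusted p under 0.05, 14.9% higher and 15.7% lower. The 3 of 10 members called, all of them lower, stand beside 30.6% of genes called in either direction and 15.7% called lower. The RPM and RPMS ranges did not overlap for 5 of the 10 members, against 43% of all genes tested. The median log2 fold change was -0.713 over the members and -0.00706 over all genes. In these bulk libraries fewer cells of a type and less RNA per cell cannot be told apart. The RPM and RPMS libraries also differed in leukocyte and neuroendocrine markers. A difference by genotype and one by cell content therefore cannot be told apart here.

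Among the antiapoptotic genes, Mcl1 encodes a short-lived protein that binds BIM, NOXA and BAK (GRCm38 annotation, GENCODE release 21, chromosome 3, 95658788 to 95663176, plus strand). Its level was 569, 317, 380 and 394 CPM in RPM lines CMV_426, CMV_427, CMV_428 and CMV_429. In RPMS lines CMV_228, CMV_231 and CMV_252 it was 149.9, 147 and 125 CPM. Every RPM library was above every RPMS library, with means of 415 ± 108 (SD, n = 4) and 140.4 ± 13.8 CPM (SD, n = 3), and the log2 fold change of -1.56 (SE 0.24) passed the test (edgeR adjusted p = 0.00488). The call held in all 13 other fits, with adjusted p up to 0.0252.

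Bcl2l1, which encodes BCL-XL (chromosome 2, 152780668 to 152831728, minus strand), was at 42.0, 75.5, 74.0 and 50.03 CPM in the RPM lines and 55.0, 54.2 and 34.5 CPM in the RPMS lines. The groups overlapped, and the log2 fold change of -0.33 (SE 0.29) did not pass (edgeR adjusted p = 0.432). Bcl2 itself (chromosome 1, 106538178 to 106714274, minus strand) was at 16.5, 26.1, 17.8 and 26.3 CPM in the RPM lines and at 12.7, 9.14 and 17.8 CPM in the RPMS lines. Line CMV_252 reached the lower RPM libraries, and the log2 fold change was -0.71 (SE 0.33, edgeR adjusted p = 0.147).

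The effectors BAX and BAK are close in function, since either can form the mitochondrial pore, yet their transcripts gave different values here. Bak1 (chromosome 17, 27019810 to 27029009, minus strand) was at 80.0, 33.6, 31.7 and 63.2 CPM in the RPM lines. In the RPMS lines it lay within 10.8 to 12.1 CPM. The means were 52.1 ± 23.5 and 11.3 ± 0.748 CPM, the ranges did not overlap, and the log2 fold change of -2.21 (SE 0.40) passed the test (edgeR adjusted p = 0.0084). It passed in all 13 other fits as well, with adjusted p up to 0.0399. Bax (chromosome 7, 45461697 to 45466898, minus strand) was at 87.9, 75.8, 47.6 and 42.3 CPM in RPM and 65.8, 73.3 and 35.2 CPM in RPMS lines. The groups overlapped, and the log2 fold change was -0.13 (SE 0.37, edgeR adjusted p = 0.821). Whether the difference of Bak1 exceeded that of Bax was not tested.

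Among the BH3-only genes, Bcl2l11 encodes BIM, a direct activator that binds all antiapoptotic members (chromosome 2, 128126038 to 128162547, plus strand). It was at 71.1, 96.0, 69.4 and 35.6 CPM in the RPM lines and at 14.9, 15.4 and 24.6 CPM in the RPMS lines. The lowest RPM library, CMV_429, was above the highest RPMS library, CMV_252. Means were 68.0 ± 24.8 and 18.3 ± 5.48 CPM, and the log2 difference of -1.89 (SE 0.39) passed the test (edgeR adjusted p = 0.0124). The call was lost without RPMS line CMV_228 (adjusted p = 0.0552) or CMV_231 (adjusted p = 0.0528).

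Pmaip1 encodes NOXA, which binds MCL1 preferentially. It was at 27.4, 13.9, 7.86 and 8.72 CPM in the RPM lines and at 2.06, 1.11 and 6.16 CPM in the RPMS lines. The ranges did not overlap, but the spread within groups was wide, and the log2 fold change of -2.21 (SE 0.76) did not pass (edgeR adjusted p = 0.0635). Without RPMS line CMV_252 it was -3.19 and passed (adjusted p = 0.0209), as it did with DESeq2 on all libraries (adjusted p = 0.00991) and with limma-voom (0.0411).

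Bid, whose product links death receptors to the mitochondria after cleavage by caspase 8, was at 75.1, 57.4, 42.1 and 41.2 CPM in RPM and 38.7, 25.4 and 34.4 CPM in RPMS lines. The ranges stood apart by a small margin and the log2 fold change of -0.72 (SE 0.29) did not pass (edgeR adjusted p = 0.104). Bbc3, which encodes the p53 target PUMA, was at 17.0, 18.6, 6.82 and 10.9 CPM in RPM lines and at 20.8, 18.7 and 12.8 CPM in RPMS lines. The log2 difference, 0.38 (SE 0.40), was the only positive one among the members and did not pass (edgeR adjusted p = 0.508). For Bad, a sensitizer controlled by phosphorylation, RPM lines spanned 18.1 to 27.7 CPM and RPMS lines 12.0 to 28.2 CPM, with a log2 difference of -0.06 (SE 0.35) that did not pass (edgeR adjusted p = 0.912). The groups overlapped for both genes.

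**Figure D1:**
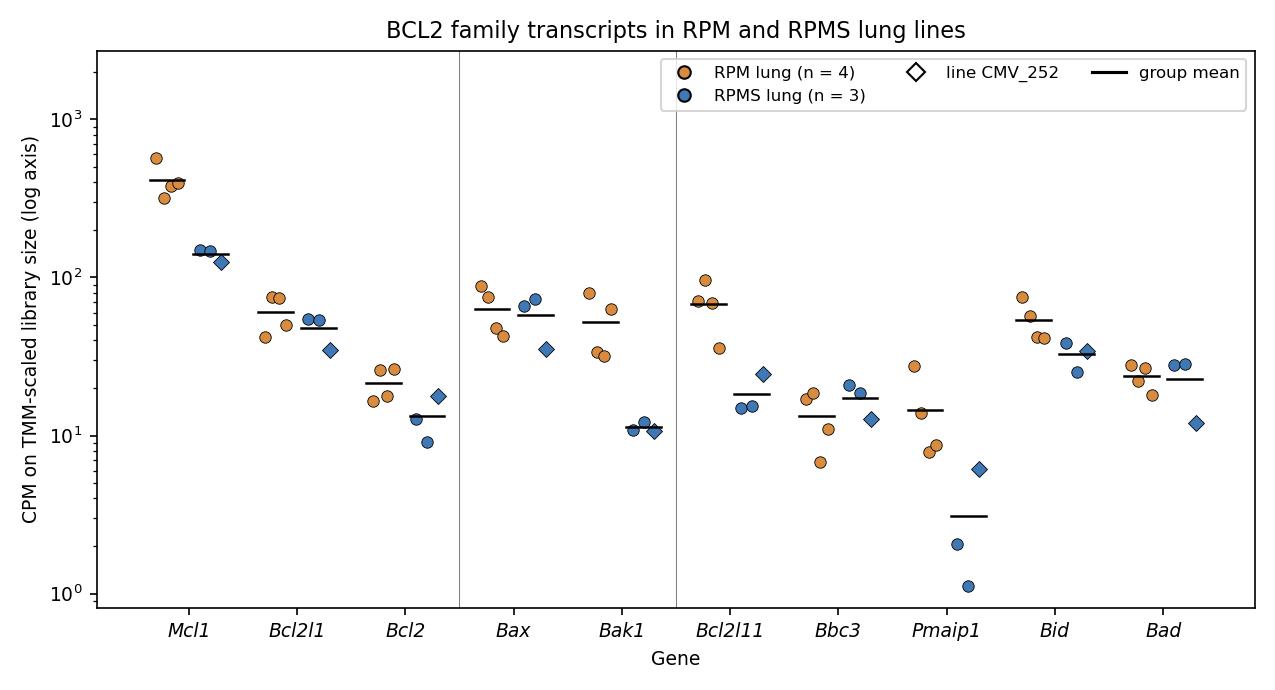
CPM of the 10 genes (log axis) in 4 RPM and 3 RPMS lung libraries of the first table, 1 point per library, with group means as bars and line CMV_252 as diamonds; vertical lines divide antiapoptotic, effector and BH3-only genes. For Mcl1, Bak1, Bcl2l11, Pmaip1 and Bid every RPM point lies above every RPMS point.

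The fall of Mcl1, Bak1 and Bcl2l11 came with the change of the leukocyte markers, of which 13 of 14 tested were lower in RPMS lines, 0 higher, and with the neuroendocrine markers, of which 9 of 12 were higher. Of the fibroblast markers 5 of 8 tested were lower and 1 higher (summed 21.7 to 663 CPM in RPM, 7.16 to 17.0 CPM in RPMS). One of 6 alveolar and airway markers was lower (32.4 to 1153 and 12.3 to 25.8 CPM), as was 1 of 3 endothelial markers (30.5 to 423 and 0.645 to 5.23 CPM). Of all genes tested, 15.7% were called lower and 14.9% higher. The part of these markers in the members' differences was not tested.

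Of the other genes of the family, 13 of 15 were tested, 2 were higher and 3 lower, beside 14.9% and 15.7% of all genes tested. Bok, a BAX-like effector, rose from 16.8 ± 10.6 to 108 ± 27.8 CPM (log2 fold change 2.68, edgeR adjusted p = 0.0259). Bcl2l13, which encodes a mitochondrial protein with BH domains, rose from 97.9 ± 15.9 to 148 ± 19.7 CPM (log2 fold change 0.60, edgeR adjusted p = 0.0473). The 3 lower genes were Bcl2a1a, Bcl2a1b and Bcl2a1d, antiapoptotic genes best known from myeloid cells. They were at 12.3, 49.3 and 21.5 CPM on average in RPM and had no count in any RPMS library of the first table. Against a floor of 3 counts per library they were at least 133-fold (Bcl2a1a) and 532-fold (Bcl2a1b) lower, with the bound for Bcl2a1d between these. They are near-identical copies, so the division of reads between them is uncertain. The antiapoptotic Bcl2l2 (29.2 and 24.7 CPM), the BH3-only genes Bik (4.68 and 5.03), Bmf (36.8 and 33.2) and Hrk (3.69 and 13.4), and Bnip3 (26.3 and 49.3) and Bnip3l (191 and 160), whose products act in mitophagy, did not pass. Neither did Bcl2l12 (7.15 and 1.70 CPM, edgeR adjusted p = 0.0627) or Bcl2l14 (1.30 and 0.201 CPM). Bcl2l15 was under the filter on low counts and Bcl2l10 had no count in these libraries.

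Downstream of the mitochondria, 3 of 14 caspase and apoptosome genes were lower and 0 higher, beside 15.7% and 14.9% of all genes tested. Casp6, an executioner caspase, went from 14.2 ± 2.78 to 1.33 ± 0.416 CPM (edgeR adjusted p = 0.0024). Aifm1, which encodes apoptosis-inducing factor, went from 78.8 to 38.1 CPM (edgeR adjusted p = 0.0106). Casp8, the initiator caspase that cleaves BID, went from 83.2 ± 42.2 to 1.12 ± 0.978 CPM (log2 fold change -6.21, edgeR adjusted p = 0.0148). The list's median log2 fold change was nonetheless 0.356, with most of its members not past the test.

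Of 10 inhibitors of apoptosis 6 were lower and 1 higher, beside 15.7% and 14.9% of all genes tested. Cflar, an inhibitor of caspase 8 activation, fell from 120 ± 42.6 to 6.13 ± 4.31 CPM (edgeR adjusted p = 0.004). Naip2 fell from 57.4 to 0.259 CPM, Naip6 from 25.2 to 0.114 CPM and Naip5 from 29.9 to 0.209 CPM, and Naip1 and Birc3 were the other genes called lower. The gene called higher was Birc5, which encodes survivin and is tied to mitosis, from 39.5 to 105 CPM (edgeR adjusted p = 0.0131); it is named here, as are Naip1, Birc3, Trp63 and Rela, because its values were seen. The Naip genes are paralogs that can share reads, and they are sensors of the inflammasome in macrophages.

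Of 7 death receptor genes tested 3 were lower and 0 higher, beside 15.7% and 14.9% of all genes tested. Ripk1, a kinase in death receptor signalling, fell from 127 ± 32.1 to 27.4 ± 5.45 CPM (edgeR adjusted p = 0.0028). Fas was at 1.42 to 10.1 CPM in RPM and had no count in RPMS libraries, at least 59.6-fold lower. Tnfsf10, the ligand TRAIL, was at 3.44 and 0.136 CPM (edgeR adjusted p = 0.0421). Of 9 mitochondrial partners, Vdac1, an outer-membrane channel, rose from 271 to 469 CPM (edgeR adjusted p = 0.00802) and Bcap31, an endoplasmic reticulum protein, fell from 125 to 60.01 CPM (edgeR adjusted p = 0.00405). None of the 7 measured genes for turnover of BCL2 family proteins passed, beside 30.6% of all genes tested.

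Of 15 tested regulators of the family's transcription 6 were lower, including Stat3 itself, and 0 higher, beside 15.7% and 14.9% of all genes tested. Nfkb1 fell from 109 ± 20.5 to 17.7 ± 7.18 CPM (edgeR adjusted p = 0.00381) and Myc from 20.8 ± 10.2 to 1.82 ± 1.54 CPM (edgeR adjusted p = 0.0146). Foxo3, a transcription factor of Bcl2l11 and Bbc3, fell from 110.5 ± 18.2 to 60.8 ± 11.7 CPM (edgeR adjusted p = 0.0243), and Trp63 and Rela were also called lower. Trp53, the activator of Bbc3, Pmaip1 and Bax, was at 4.24 ± 1.89 and 2.39 ± 3.30 CPM (edgeR adjusted p = 0.571), and E2f1 at 36.7 and 55.2 CPM (edgeR adjusted p = 0.154). Trp53 was higher in the second table, at 13.7 to 24.2 CPM in lung and 18.03 to 26.8 CPM in liver lines, though the tables were scaled apart and gene counts do not separate deleted from retained exons. Transcripts of the MYC allele and of Myc itself were not told apart.

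The second comparison asked how RPMS liver lines differ from RPMS lung lines. None of the 10 members was called, and each overlapped between the organs. Of all 14441 genes tested, 0% were called by edgeR (0% higher and 0% lower), 650 genes had an unadjusted p under 0.05, DESeq2 called 52 genes and limma-voom 0, and 2.56% of genes did not overlap between the groups. For Mcl1, Bcl2l1, Bak1, Bcl2l11 and Pmaip1 the fitted difference was nearer 0 when 1 lung line was left out.

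Mcl1 was at 206, 180 and 224 CPM in lung lines CMV_228, CMV_231 and CMV_232 and at 1351 CPM in CMV_252. In liver lines CMV_273, CMV_341, CMV_343 and CMV_344 it was 167, 163, 137 and 199.7 CPM. The liver range began below and ended within that of the first 3 lung lines, and the log2 fold change was -1.56 (SE 0.67, unadjusted p = 0.0459, edgeR adjusted p = 0.945). Without line CMV_252 it was -0.28 (SE 0.18).

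Bcl2l1 was at 72.4, 115, 497 and 64.8 CPM in the lung lines, in the same order, and at 62.4, 108, 85.2 and 71.7 CPM in the liver lines. Line CMV_232 alone was above 115 CPM. Over all 8 lines the log2 difference was -1.19 (SE 0.65, edgeR adjusted p = 0.945), and it became -0.04 (SE 0.29) without it. Bcl2 was at 19.3, 16.7, 6.64 and 2.07 CPM in the lung and 17.6, 13.6, 13.7 and 15.6 CPM in the liver lines. The level in CMV_252 rests on 27 counts, and the 4 liver lines lay within the range of the lung lines (log2 fold change 0.44, SE 0.61, edgeR adjusted p = 0.966).

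Bax was at 47.7, 41.2, 48.5 and 39.3 CPM in the lung lines and at 12.8, 50.3, 42.0 and 56.8 CPM in the liver lines, with CMV_273 below all others. Bak1 was at 21.004, 23.2, 17.7 and 45.4 CPM in lung and 15.02, 23.4, 12.5 and 20.6 CPM in liver lines. Their log2 fold changes were -0.13 (SE 0.41) and -0.58 (SE 0.37). For Bak1 the lung line CMV_252 was again the highest, and without it the log2 fold change was -0.20.

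Bcl2l11 was at 31.7, 32.1, 14.2 and 106.6 CPM in the lung and 44.5, 29.0, 14.2 and 15.7 CPM in the liver lines. Its log2 fold change of -0.84 (SE 0.63) was -0.01 without CMV_252. Pmaip1 was at 2.48, 0.651, 3.55 and 59.9 CPM in lung and 0.868, 3.10, 0.638 and 4.67 CPM in liver lines, and its log2 fold change went from -2.85 (SE 1.39) to 0.06 (SE 0.85) without CMV_252. Bbc3 was at 14.6, 18.6, 20.1 and 49.0 CPM in lung and 26.8, 22.6, 27.4 and 60.8 CPM in liver lines. All liver lines were above the first 3 lung lines, and the log2 fold change rose from 0.43 (SE 0.48) to 0.96 (SE 0.39) without CMV_252, still not past the test (edgeR adjusted p = 0.835). Bid (14.98 to 29.8 CPM in lung, 15.6 to 31.2 in liver) and Bad (17.5 to 32.8 in lung, 21.9 to 30.4 in liver) had the narrowest lung ranges among the BH3-only genes, with log2 fold changes of -0.01 and 0.04.

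**Figure D2:**
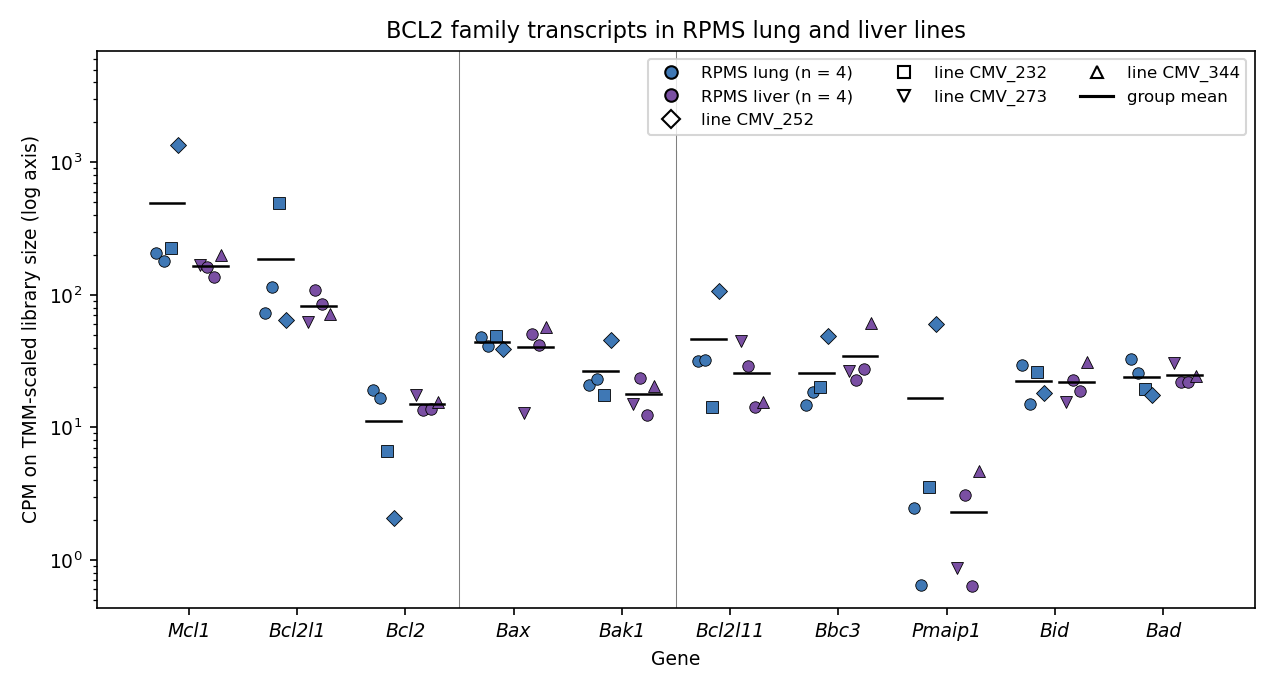
CPM of the 10 genes (log axis) in 4 RPMS lung and 4 RPMS liver libraries of the second table, 1 point per library, with group means as bars and 4 lines given their own symbols. Line CMV_252 lies above the other lung lines for Mcl1, Bak1, Bcl2l11, Bbc3 and Pmaip1, line CMV_232 for Bcl2l1, and line CMV_273 lies below the other liver lines for Bax.

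**Figure D3:**
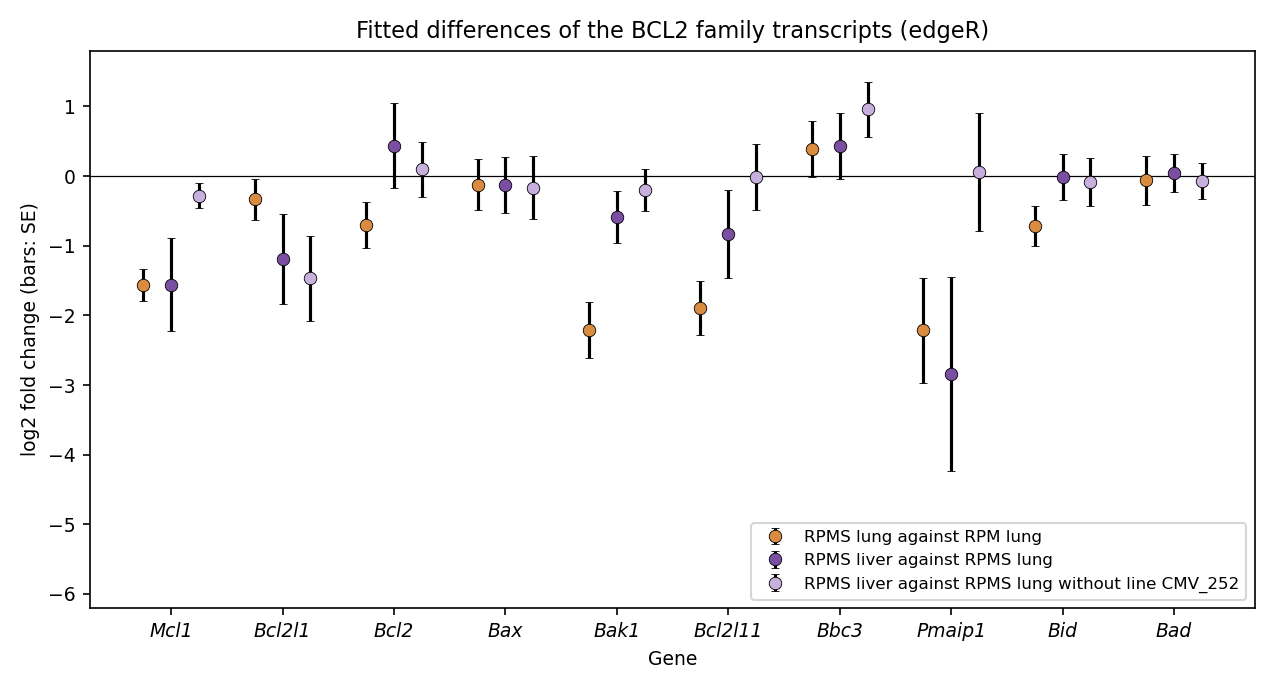
Fitted log2 fold changes (edgeR) with SE bars for RPMS against RPM lung lines, for RPMS liver against lung lines, and for the latter without line CMV_252. Mcl1, Bak1 and Bcl2l11 passed the test in the first comparison and none did in the second; the tables were fitted apart and share 3 lines by name.

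In none of the other 7 apoptosis and regulator lists did a gene pass between liver and lung. Of the other BCL2 family genes 9 were tested there. Bcl2l2, Bok, Bik, Bmf, Bcl2l12, Bcl2l13, Bnip3 and Bnip3l had log2 fold changes between -0.80 and 0.04. Hrk, a BH3-only gene of neurons, was at 0.489 to 21.4 CPM in lung and 6.33 to 51.4 CPM in liver lines (log2 fold change 2.08, edgeR adjusted p = 0.945). The Bcl2a1 genes had no count in any of the 8 libraries.

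Lines CMV_228, CMV_231 and CMV_252 carry the same names in both tables, which were scaled apart, so the values are set side by side with no test. Mcl1 in line CMV_252 was at 125 CPM in the first table and 1351 CPM in the second, and Pmaip1 at 6.16 and 59.9 CPM. In that line Bcl2l11 was at 24.6 and 106.6 CPM, Bak1 at 10.8 and 45.4 CPM, and Bcl2 at 17.8 and 2.07 CPM. In CMV_228 the Mcl1 values were 149.9 and 206 CPM, and in CMV_231 they were 147 and 180 CPM. Bcl2l11 was at 14.9 and 31.7 CPM in CMV_228 and at 15.4 and 32.1 CPM in CMV_231. Bak1 was at 10.9 and 21.004 CPM in CMV_228 and at 12.1 and 23.2 CPM in CMV_231. Bcl2 was at 12.7 and 19.3 CPM in CMV_228 and at 9.14 and 16.7 CPM in CMV_231. Pmaip1 was at 2.06 and 2.48 CPM in CMV_228 and at 1.11 and 0.651 CPM in CMV_231. The CMV_252 libraries thus differ more between the tables for these genes than those of the other shared lines, and the libraries were both labelled as the same lung line. The second CMV_252 value was above the first table's RPM range for Mcl1 and Bcl2l11, and inside it for Bak1. In CMV_228 and CMV_231 the second-table values of these genes were below that range. For Bcl2l11 the margin was small, with 31.7 and 32.1 CPM against a lowest RPM value of 35.6 CPM. Liver line CMV_273, at 44.5 CPM of Bcl2l11, was inside the RPM range. Whether Mcl1, Bak1 and Bcl2l11 would be called lower with the second CMV_252 library was not tested. Which of the 2 libraries departs from the line was not tested.

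Divided by the summed exon length, Mcl1 was the highest of the 3 antiapoptotic transcripts in 14 of the 15 libraries. In CPM per kilobase it was 121.5 ± 31.5 in RPM and 41.1 ± 4.03 in RPMS lines of the first table, where Bcl2l1 was 13.2 ± 3.69 and 10.45 ± 2.53 and Bcl2 2.36 ± 0.575 and 1.45 ± 0.477. Mcl1 and Bcl2l1 did not overlap in level in any group of the first table or in the liver lines, and Bcl2 was below both there. In lung lines of the second table Mcl1 was at 143 ± 168 and Bcl2l1 at 40.8 ± 45.3 CPM per kilobase, and these ranges overlapped. Among effectors Bax was above Bak1 on average, at 40.2 ± 13.9 and 21.65 ± 9.77 CPM per kilobase in RPM and 36.9 ± 12.8 and 4.68 ± 0.311 in RPMS lines. The RPM ranges of Bax and Bak1 overlapped and the RPMS ranges did not. Among the BH3-only genes of RPM lines, Bid was the highest on average (15.2 ± 4.48), and its range overlapped only with that of Bcl2l11 (8.47 ± 3.09), above Bad, Bbc3 and Pmaip1. Per kilobase of the longest transcript the ranges of Bid (17.1 to 31.1) and Bad (11.8 to 18.1) overlapped too.

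Mcl1 made up 82.8% to 93.8% of the per-kilobase sum of Mcl1, Bcl2l1 and Bcl2 in the RPM libraries and 76.6% to 79.4% in the RPMS libraries of the first table. In the second table it made up 65.5% to 77.1% in liver lines. The lung lines ran from 37.5% in CMV_232, where Bcl2l1 held 62.1%, to 96.5% in CMV_252. The share of Bcl2 stayed at or under 4.24% in each library. These shares are of transcripts and depend on the length used.

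**Figure D4:**
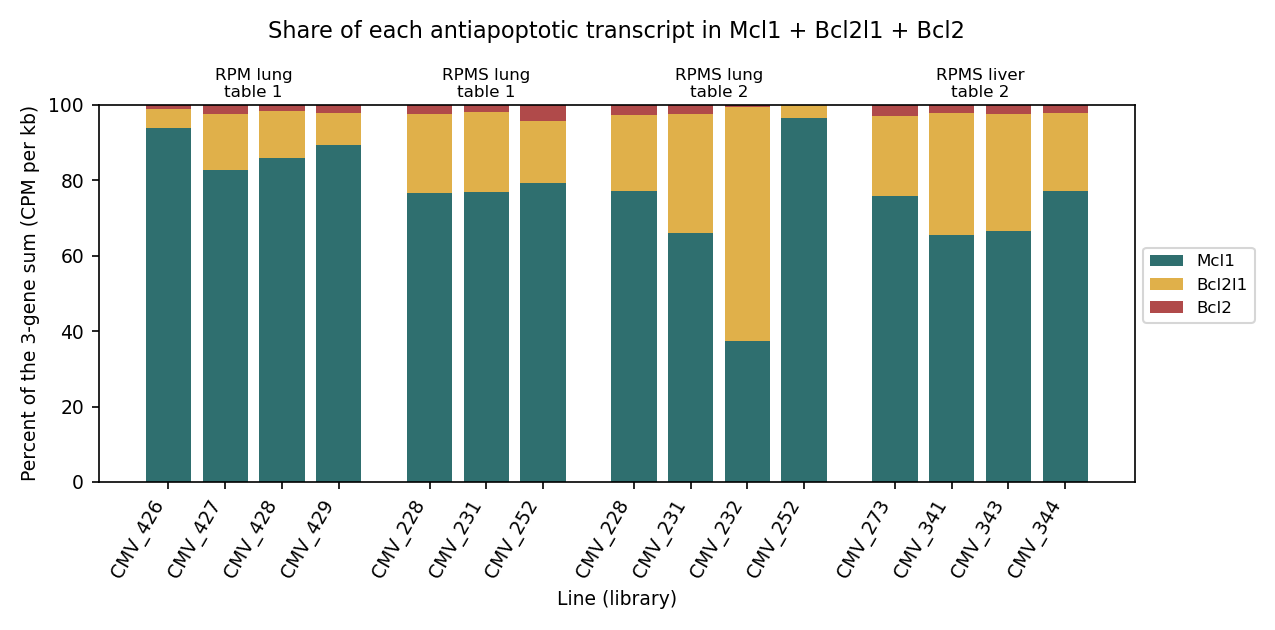
Stacked bars from 0 to 100% give the share of Mcl1, Bcl2l1 and Bcl2 in their summed CPM per kilobase of exon, 1 bar per library, grouped by genotype, organ and table. Mcl1 is the largest share in all libraries except CMV_232, where Bcl2l1 holds 62.1%.

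The genes around Mcl1 and Bcl2l1 were examined after these levels had been seen. Within 2 Mb of Mcl1, 81 of 91 tested genes were higher in line CMV_252 of the second table than the median of the other 7 libraries, 68 of them by over 1 on the log2 scale, where 18.1% of all genes in that library exceed 1. Their median difference was 1.99, against -0.0786 over the 732 tested genes of chromosome 3. Ensa, within the 2 Mb before Mcl1, was at 757 CPM in CMV_252 and at 106.5 to 178.5 CPM in the other libraries. By 2 Mb bins, the median was 1.01 at 6 to 8 Mb before Mcl1, 1.6 at 4 to 6 Mb before, 0.804 at 2 to 4 Mb before, 1.41 in the 2 Mb before and 2.23 in the 2 Mb after it. The bin at 2 to 4 Mb before holds 9 genes, and its median in line CMV_231 was higher, at 1.05. Beyond 2 Mb after Mcl1 the medians were -1.02, -1.04 and -1.17 in the next 3 bins. In the first table the neighbours of Mcl1 in line CMV_252 had a median difference of -0.0614.

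Bcl2l1 in line CMV_232 had a difference of 2.78 on the log2 scale, and 41 of its 55 neighbours within 2 Mb were higher there, with a median of 0.647 and 15 over 1, where 7.61% of all genes exceed 1. Tpx2, a spindle gene beside Bcl2l1, was at 1072 CPM in CMV_232 and 166 to 497 CPM elsewhere, while Id1, on the other side, was at 38.2 CPM, inside the range of the other lines (3.38 to 81.7). Going along the chromosome in 2 Mb bins, the medians in CMV_232 were 0.33, 0.638 and 0.434 over the 6 Mb before the gene (7, 10 and 29 genes). They were 0.845 and 0.923 in the 4 Mb after it, and -0.00621 in the next bin. Line CMV_231 had a median of 0.449 in the 2 Mb before the gene and 0.53 in the 2 Mb after it. It reached 1.07 at 8 to 10 Mb after the gene (4 genes). For the other members that were high in CMV_252 the neighbours' median was 0.0376 for Bcl2l11, -0.136 for Bak1, -0.299 for Bbc3 and 0.391 for Pmaip1. DNA copy number was not measured here, and its part in these levels was not tested.

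**Figure D5:**
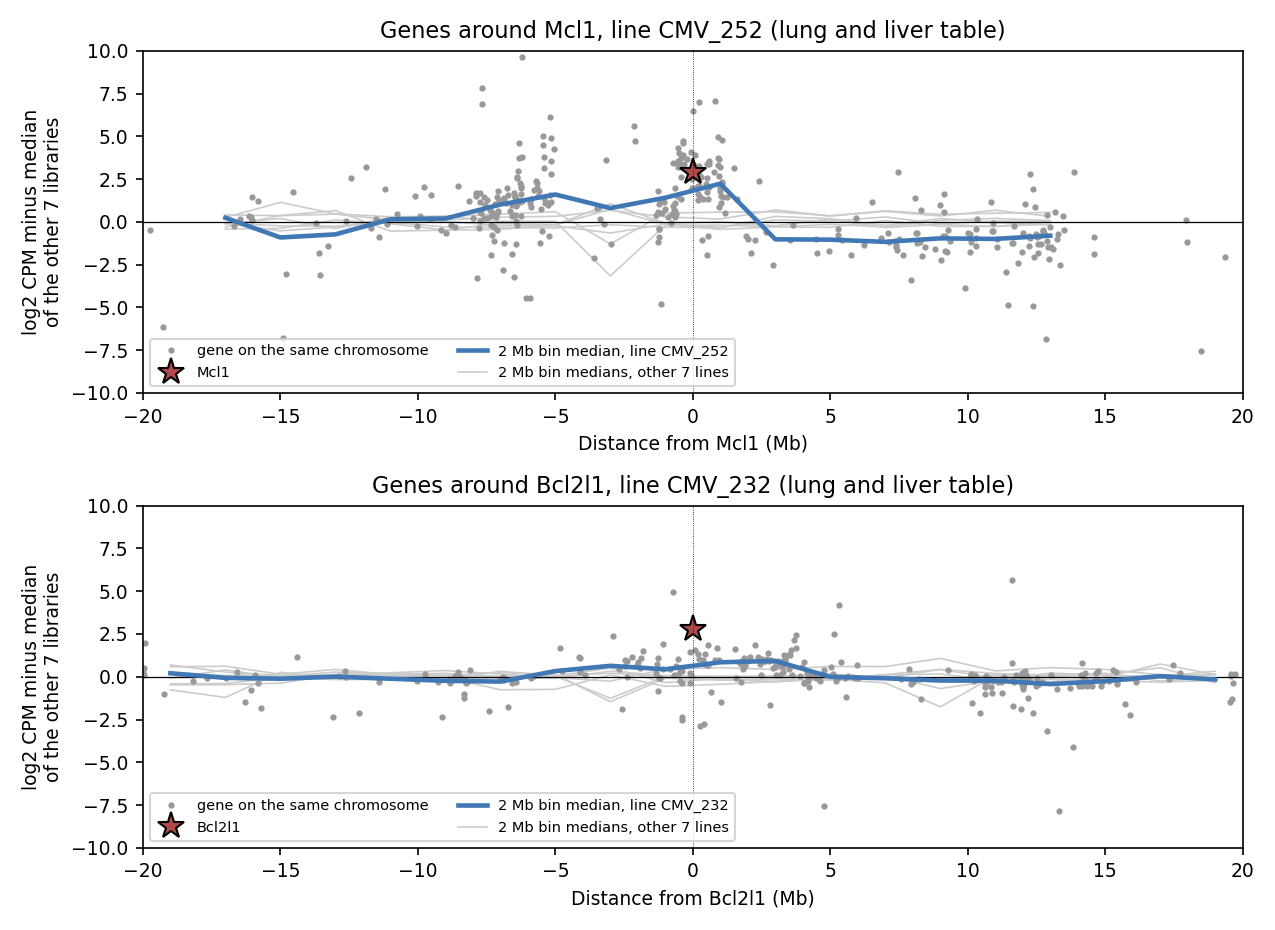
Difference in log2 CPM from the median of the other 7 libraries of the second table, for genes within 20 Mb of Mcl1 in line CMV_252 (top) and of Bcl2l1 in line CMV_232 (bottom), with medians of 2 Mb bins of at least 4 genes for that line (blue) and the other 7 (grey). The blue bin medians reach 2.23 beside Mcl1 and 0.923 after Bcl2l1, where a grey one (line CMV_231) reaches 1.07.

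The genes most like each member were those with the highest lower value of Pearson's r over the 7 libraries of the first table and the 8 of the second, among 13818 genes tested in both. The libraries of a table share groups and outlying lines, so these are descriptions. For Mcl1 they were Dcaf12 (r = 0.987 and 0.968) and Bri3 (0.964 and 0.974). Bcl2l1 was followed by Asxl1 (0.883 and 0.938) and Trpc4ap (0.896 and 0.899), which lie 0.569 and 2.86 Mb from it on chromosome 2. Bcl2l11 went with Plcb3 (0.983 and 0.981) and Sptlc1 (0.94 and 0.955), Bak1 with Alg1 (0.952 and 0.951) and B3galnt2 (0.932 and 0.952), and Pmaip1 with Rpl10 (0.947 and 0.945) and Igf2bp3 (0.941 and 0.924). For Bax the 2 genes were Ctsf and Ap2s1, for Bad Eif4e2 and 9130011E15Rik, for Bid Diaph2 and Frrs1, for Bbc3 Whamm and Neil1, and for Bcl2 Gm19144 and Ebag9, each with a lower r of 0.795 to 0.924. Between the members themselves, Mcl1 and Bak1 had r = 0.972 and 0.864, whereas Mcl1 and Bcl2 had 0.547 in the first table and -0.908 in the second, where line CMV_252 holds the highest Mcl1 and the lowest Bcl2.

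Several members share genomic sequence with another gene. Bid overlaps Bcl2l13, Bak1 overlaps Ggnbp1, Bad overlaps Gpr137 and Bcl2 overlaps D630008O14Rik, all on the opposite strand. On the same strand, Bax overlaps Gm45808, Bcl2 overlaps Mir3473f and Gm37053, and Bid overlaps Gm44260. The kit keeps strand, but the strand setting of the counting is not given in the sources used here, so reads of these pairs may not be fully separated.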

How the data were processed

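RNA was sequenced from 15 libraries of cultured lines, prepared, per the labels' protocols, with a kit that keeps strand. The submitters' processing notes name HISAT2, StringTie and GRCm38; versions, annotation and strand setting are not given in the sources used here. The authors deposited 2 tables of raw read counts per gene (7 and 8 libraries), with 0 columns of no sample; 1832 unnamed records of the second table (at most 0.0799% of counts) were left out. The tables were not pooled. Each comparison was fitted with edgeR 4.0.16 in R 4.3.3 (glmQLFit, TMM, filterByExpr, Benjamini-Hochberg over all tested genes, threshold 0.05). Alternatives were DESeq2 1.42.0, limma 3.58.1 voom, other scaling factors, other filters, a threshold of 0.01 and leaving out each library. All 10 members passed the filter in both tables. Lengths and positions came from GENCODE release 21. Named genes were the members, the other BCL2 family genes, up to 4 genes per list with the smallest adjusted p past the threshold, 6 genes of the genotype or regulators (1 is not reported here), and the 2 genes most like each member. Members and lists were chosen with earlier results of these data known. A floor of 3 counts equals 0.0907 to 0.292 CPM. Differences of neighbouring genes use log2 CPM with a prior count of 2. Simulated counts had 200 genes changed per comparison. The first comparison recovered 19 of 100 genes changed 4-fold and 65 of 100 changed 16-fold (17235 genes). The second recovered 38 of 98 and 80 of 98 (14126 genes).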

Additional observations from a re-analysis of the deposited data

Results flagged for a closer look

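In groups of 4 libraries, a value was singled out when its gap to the nearest other value as a share of the group's range exceeded Dixon's critical value. This was met in 5 of 30 member groups. The nominal rate of about 1 in 20 assumes normal and independent values. These groups share their libraries and hold CPM values, so the count cannot be set against that rate. In RPMS lung lines of the second table Mcl1 was at 1351.11 CPM in line CMV_252 (gap 0.963 of the range; others 180 to 224 CPM). Pmaip1 was at 59.9298 CPM in the same library (0.951; others 0.651 to 3.55 CPM), and Bbc3 at 49.0195 CPM (0.841; others 14.6 to 20.1 CPM). Bcl2l1 was at 496.855 CPM in line CMV_232 (0.884; others 64.8 to 115 CPM). In RPMS liver lines Bbc3 was at 60.8171 CPM in line CMV_344 (0.874; others 22.6 to 27.4 CPM), the library with the fewest counts (9453715) and the most genes detected (30341). The causes were not tested.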

How the results depend on the processing

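No paired analysis was possible because the groups compared share no line number. In the first comparison 5403 genes passed. The count was 2103 at a threshold of 0.01, 2896 without RPMS line CMV_228, 3103 without CMV_231 and up to 7076 without CMV_252, and the number of members called was 2 to 4. Mcl1 and Bak1 kept their calls in each of the 13 other fits. None of these fits held the second table's library of CMV_252. Bcl2l11 lost its call and Pmaip1 gained one as given in the report. Leaving out single libraries, the uncalled log2 fold changes ran from -0.32 to 0.12 for Bax and from -0.24 to 0.23 for Bad, above 0 without RPM line CMV_426 or RPMS line CMV_252. In the second comparison DESeq2 called 52 genes and the fit with no filter 2, and 0 passed in the other fits; no member was called in any, and DESeq2 gave 8 of the 10 an adjusted p. There Bid turned to 0.043 with upper-quartile factors. Leaving out single libraries, it ran from -0.22 to 0.15 (above 0 without CMV_228, CMV_232, CMV_273 or CMV_343), Bad from -0.077 to 0.22 (below 0 without CMV_232, CMV_252 or CMV_273), Bax from -0.34 to 0.16 (above 0 without CMV_273) and Pmaip1 from -3.43 to 0.058 (above 0 without CMV_252). The causes were not tested. The mean Mcl1 share was 88.0% (RPM), 77.7% (RPMS lung, first table) and 71.2% (liver). It was 82.7%, 69.7% and 63.1% without division by length, and 81.3%, 66.9% and 58.9% per kilobase of the longest transcript. Leaving out single libraries gave 86.0% to 89.7%, 76.8% to 78.2%, 60.3% to 79.9% (lung, second table) and 69.3% to 73.2%. With 3 or 4 libraries a group, a 4-fold change was often not recovered in the simulation given under the processing. That simulation changed 200 genes, fewer than the 5403 that passed in the first comparison. Its recovery therefore does not give the detection rate of that comparison.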

Other observations

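Bax in liver line CMV_273 was at 12.8 CPM, and 15 of its 109 tested neighbours within 2 Mb on chromosome 7 were higher than the median of the other 7 libraries of the second table (median difference -0.699 on the log2 scale, against -0.159 over the chromosome). In lung line CMV_231 the same neighbours had a median of -0.684, 15 of 109 higher, while Bax itself was at 41.2 CPM, within the range of the other lung lines. The genes within 2 Mb of Bcl2l1 were also higher in line CMV_231 (47 of 55, median 0.476), where Bcl2l1 was at 115 CPM, the second highest lung value. In liver line CMV_341 Bcl2l1 was at 108 CPM, but only 15 of these 55 genes were higher (median -0.257). In liver line CMV_344, 77 of 91 neighbours of Mcl1 were higher (median 0.549, chromosome median 0.405) and Mcl1 was at 199.7 CPM, the highest liver value. These windows were chosen after the levels had been seen, and DNA was not measured.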
